A study of Mus musculus with 111 samples.

Results

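The negative fraction of wild-type (WT) mice is the set of striatal cells that carried neither GLT1 nor CD11b on their surface when cells were sorted, and it is described here at 6 and at 12 months of age. It comprised 8 samples, 4 at each age, of 111 samples in the whole series, taken by their titles and described across all genes. After papain digestion of the striatum and a Percoll step, flow cytometry separated astrocytes (GLT1-positive and CD11b-negative), microglia (GLT1-negative and CD11b-positive) and the negative fraction. The WT mice were the littermate controls of zQ175 mice, a Huntington's disease model with an expanded repeat in its own Htt gene, whose negative fraction was sampled at the same ages (4 samples each). Each sample held the striata of the WT mice of a litter, pooled, with the subventricular zone removed, so p-values measure the spread between pools and say nothing of single mice. In bulk samples of this kind, fewer cells of a type and less RNA per cell cannot be told apart.

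The sort removed cells by 2 surface proteins. GLT1 is the main glutamate transporter of astrocytes and CD11b an integrin of microglia and other myeloid cells. What is left can hold vascular cells, oligodendrocytes and their precursors, neurons and their migrating precursors, the ciliated ependymal cells that line the ventricles, the choroid plexus epithelium that secretes cerebrospinal fluid, and blood and border immune cells. Among immune cells, B cells and dendritic cells carry MHC class II molecules, which present peptides to helper T cells, whereas nearly all cells carry class I.

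Marker genes of several of these cell types had high levels, though not all were particular to this fraction. Levels are log2 array signals as deposited. Averaged over the tested genes of each marker list, oligodendrocyte markers stood at 11.94 at 6 months and 11.95 at 12 months, neuroblast markers at 11.61 and 11.46, and endothelial markers at 11.38 and 11.46. Homeostatic microglia markers stood at 6.64 and 6.70. Oligodendrocyte markers were higher still in the WT astrocyte fraction, at 12.56 at 6 months and 12.36 at 12 months. In WT microglia at 6 months they stood at 11.115, so their level does not set the negative fraction apart. Neuroblast and endothelial markers were lower in WT astrocytes at 12 months (7.52 and 8.53) and in WT microglia at 6 months (6.59 and 7.11). Itgam, the gene of CD11b, lay between 2.995 and 3.54 in the 8 samples and was too dim to be tested, against a mean of 8.89 in WT microglia at 6 months. Slc1a2, the gene of GLT1, averaged 9.75 ± 0.42 (SD, n = 4) at 6 months and 10.46 ± 0.82 (SD, n = 4) at 12 months, below the 13.28 of the WT astrocyte fraction at 6 months but far above the dim limit of 5.54. Its change with age was 0.72 ± 0.33 (SE, limma adjusted p = 0.535). Transcripts of the X-inactivation gene Xist were at 3.30 to 6.04, and the 3 tested Y-linked genes Eif2s3y, Kdm5d and Uty averaged between 8.65 and 9.44, with changes of 0.12, -0.38 and -0.57 and no call. Pearson correlations between samples ran from 0.944 to 0.966 within 6 months, from 0.948 to 0.985 within 12 months and from 0.942 to 0.974 between the ages, so the ranges overlapped. No 2 arrays were identical.

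The number of genes called with age was small and depended on the settings. Of 12628 genes tested, limma called 8 at an adjusted p below 0.05 (0.0634%), of which Map3k6, Lgi1, Got1l1 and Ifngr2 rose and Cmah, Ccr7, Myc and Cwf19l2 fell. All 8 had adjusted p between 0.0493 and 0.0496, and the next gene stood at 0.0685. At an unadjusted p below 0.05 there were 1138 genes (9.01%), 566 higher (4.48%) and 572 lower (4.53%) at 12 months. A change beyond 2-fold was measured for 185 genes, 5 of them called. The median over all genes was -0.01, the median standard error 0.20, and for 10810 genes (85.6%) the 95% interval of the change lay within 1 log2 unit of 0. The count rested on single samples. It was 0 without sample 22 or 23, 21 without sample 24, and 1 without sample 35, 36 or 37 (samples 22 to 25 are the 6-month and 34 to 37 the 12-month pools). The count moved little without sample 25 (10) or sample 34 (7). It was also 0 when the probe sets of a gene were averaged, and 1 with the WT samples alone in the fit. In the other direction it was 14 with no filter on dim genes, 464 with arrays weighted by their fit, and 78 (0.62% of 12573 genes) in a fit of the 3 WT fractions. Unless another fit is named, calls below are those of the main fit, which called 8 genes.

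Map3k6, the gene of a stress-activated kinase at the head of MAP kinase cascades, had 8.12, 7.15, 7.38 and 7.45 in the 6-month samples 22, 23, 24 and 25, and 9.30, 9.50, 9.26 and 8.84 in the 12-month samples 34, 35, 36 and 37. All 12-month samples were above all 6-month samples. The rise was 1.70 ± 0.29 (SE, adjusted p = 0.0496). Without any 1 of the 8 WT samples it was no longer called, with the rise between 1.57 and 1.90 over all settings. Lgi1 encodes a secreted synaptic protein, loss of which causes inherited epilepsy. It had 5.08, 5.91, 6.12 and 6.40 at 6 months and 7.20, 7.38, 7.34 and 7.62 at 12 months, in the same order of samples. Its groups did not overlap, and it rose by 1.51 ± 0.25.

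Got1l1, a gene related to aspartate aminotransferases, had 5.30, 5.34, 5.53 and 5.47 at 6 months, and 6.16, 6.40, 5.98 and 6.78 at 12 months. The measured rise was 0.92 ± 0.14. All its 6-month samples, WT and zQ175, lay below the dim limit of 5.54, so it was tested only because of its 12-month levels, and the size of the rise is uncertain. Ifngr2 encodes the signalling chain of the interferon gamma receptor. It had 6.91, 6.96, 6.97 and 6.82 at 6 months and 7.97, 7.70, 7.45 and 7.59 at 12 months, a rise of 0.76 ± 0.13. The 6-month samples lay within 0.2 of each other on the log2 scale, and all 12-month samples lay above them. The other probe set of Ifngr2 had a change of 0.08.

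Of the genes that fell, Cmah encodes the enzyme that hydroxylates sialic acids on cell surface glycans. It had 6.55, 7.37, 6.73 and 6.74 at 6 months and 5.73, 4.14, 4.49 and 4.85 at 12 months, a change of -2.04 ± 0.33 (adjusted p = 0.0493). Its 12-month samples spread more (SD 0.68) than its 6-month samples (SD 0.36), and 3 of them were below the dim limit. Over its 6 probe sets the change ran from -2.04 to 0.12. Ccr7 encodes the chemokine receptor that guides T cells and dendritic cells to lymph nodes. It had 8.55, 9.71, 8.84 and 8.16 at 6 months and 7.41, 6.22, 6.92 and 6.97 at 12 months, a change of -1.94 ± 0.33, and sample 23 was the highest.

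Myc, the gene of a transcription factor of growth and proliferation, had 7.40, 7.18, 7.59 and 6.81 at 6 months and 5.68, 5.53, 6.03 and 6.11 at 12 months. Its change of -1.41 ± 0.21 had the smallest p of all genes. Cwf19l2, related to a yeast splicing complex gene, had 9.36, 9.24, 9.10 and 8.97 at 6 months and 8.24, 8.48, 8.44 and 8.55 at 12 months, a change of -0.74 ± 0.12. The ages did not overlap for any of the 8 genes. They did not overlap either for 711 of all genes tested (5.63%), 342 higher and 369 lower at 12 months.

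**Figure D1:**
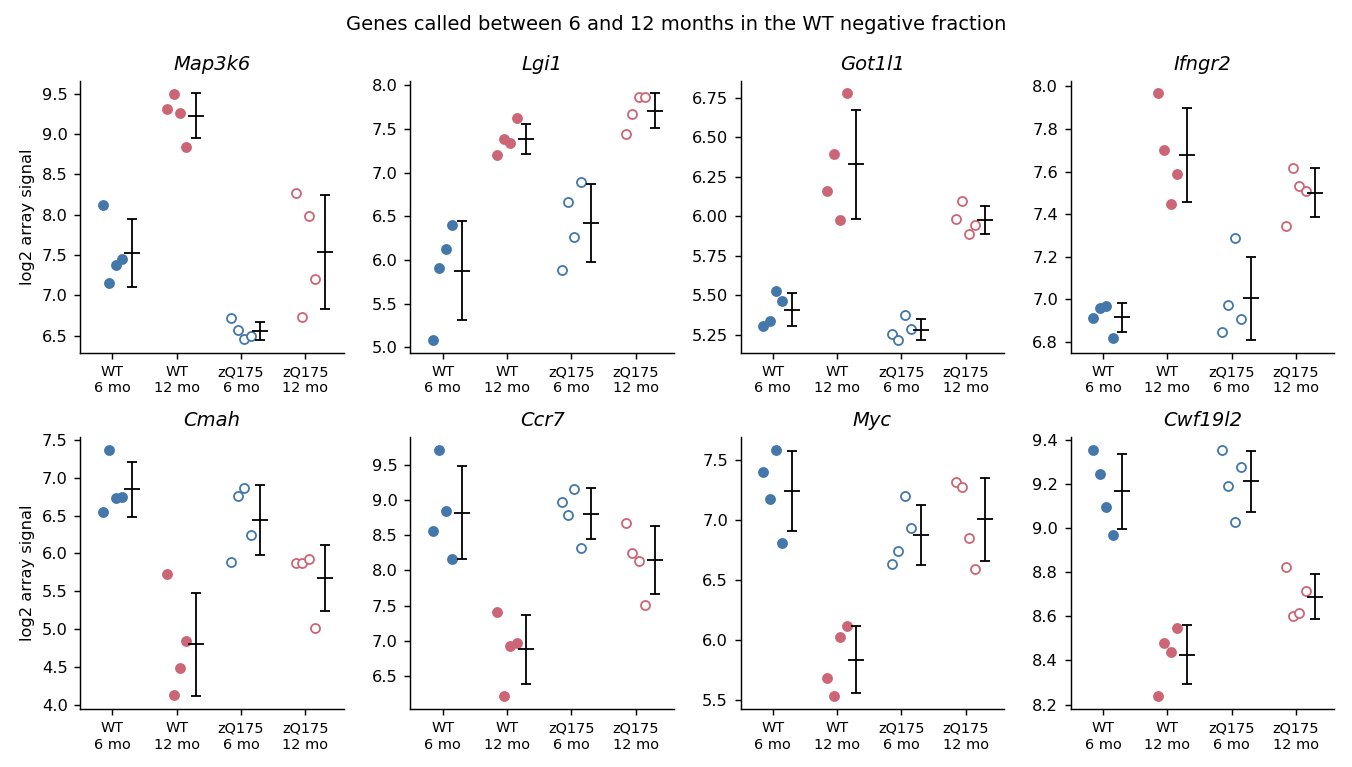
Log2 array signal of the 8 genes called with age, 1 point per sample of the negative fraction (WT filled, zQ175 open, 6 months blue, 12 months red), with mean ± SD of the 4 samples beside each group. WT samples of the 2 ages do not overlap in any panel, and Myc is the gene whose zQ175 change has the opposite sign (0.13).

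In younger WT mice, the controls of the R6/2 model (5 samples each at 6 and 12 weeks), these genes had no common course. Map3k6 averaged 6.15 ± 0.28 (SD) at 6 weeks and 7.87 ± 0.70 at 12 weeks, so that 9.22 at 12 months was the highest of the 4 ages. Ccr7 stood at 7.68 ± 0.52 and 9.35 ± 0.61, and Cmah at 5.10 ± 0.35 and 7.83 ± 0.75. Both had their lowest mean at 12 months (6.88 and 4.80), and for Cmah the mean at 6 weeks lay within its spread at 12 months. Myc was at 6.38 ± 0.49 and 6.38 ± 1.01, between its means at 6 months (7.25) and 12 months (5.84). Ifngr2 had 6.91 ± 0.26 and 7.60 ± 0.23, beside 6.91 at 6 months and 7.68 at 12 months. Cwf19l2 was at 8.66 ± 0.19 and 8.77 ± 0.23, with its highest mean at 6 months (9.17) and its lowest at 12 months (8.43). Lgi1 stood at 6.62 ± 0.62 and 5.56 ± 0.57, and Got1l1 at 5.86 ± 0.21 and 5.47 ± 0.11. Both had their highest mean at 12 months (7.38 and 6.33). These younger controls came from another line and had Xist at means of 10.56 and 11.72, so the values are set side by side without a test.

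The genes next in rank did not pass the test. On the higher side were Pisd (0.57 ± 0.10), an enzyme gene of phosphatidylethanolamine synthesis, and Crem (1.43 ± 0.27), a cAMP-responsive transcription factor gene whose 4 probe sets ran from -0.09 to 1.43. Maff, a small MAF transcription factor gene, had 1.48 ± 0.29, and Hdc, the histamine-forming enzyme gene, 1.49 ± 0.29. Clu, which encodes a secreted chaperone, had 0.97 ± 0.19, and Zc3h18 and Tmem252 had 0.63 and 1.64. On the lower side, Fcrla, an Fc receptor-like gene of B cells, had -1.25 ± 0.22, Cd55, a complement inhibitor gene, -1.48 ± 0.28, and Med18, a Mediator subunit gene, -1.15 ± 0.21. Rb1, the retinoblastoma tumour suppressor gene, had -0.58 ± 0.11, with 0.15 in its other probe set. Caap1, Zfp799 and Slc25a16 had -0.67, -0.81 and -0.65. Their adjusted p-values ran from 0.0685 to 0.0912, and none of their groups overlapped. At a looser adjusted p of 0.1, 53 genes would have been called, 24 higher and 29 lower.

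MHC class II and B cell genes had some of the largest negative differences, without a call. Of 15 antigen presentation genes tested, 0 were called and 5 had groups that did not overlap, against 5.63% of all genes, and these 5 were the class II genes of the list. Their shared promoter module includes a Y box, a reversed CCAAT element. It is shown in capitals (TGATTGG, searched on both strands in the 250 bases before the start site, 7 letters) for the 4 class II genes in which it was found, because these genes are known to be transcribed through it together. The sequences are from RefSeq, build GRCm38.p6, 5′ to 3′ on the gene's strand, at chr17:34287844-34287953 (minus), chr17:34305737-34305846 (plus), chr17:34092249-34092358 (plus) and chr17:34238775-34238884 (plus).
H2-Aa: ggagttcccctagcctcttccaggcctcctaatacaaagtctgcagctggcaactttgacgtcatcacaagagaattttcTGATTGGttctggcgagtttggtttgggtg
H2-Eb1: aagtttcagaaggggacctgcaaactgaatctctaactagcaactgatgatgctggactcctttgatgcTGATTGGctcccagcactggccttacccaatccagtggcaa
H2-Oa: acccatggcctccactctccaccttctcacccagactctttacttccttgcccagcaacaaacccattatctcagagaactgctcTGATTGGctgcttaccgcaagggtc
H2-Ob: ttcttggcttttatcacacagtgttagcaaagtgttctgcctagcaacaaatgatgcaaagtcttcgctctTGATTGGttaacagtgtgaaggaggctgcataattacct
The motif begins 50, 61, 45 and 59 bases before the start site. It was present in 2375 of 32851 promoters of the same length (7.23%), and 5 of the 7 class II genes looked up matched an entry. In the 2 promoters listed for H2-DMa these letters were not in the window.

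Cd74 encodes the invariant chain that escorts class II molecules. It had 11.58, 12.38, 11.84 and 11.77 at 6 months and 11.09, 10.38, 10.68 and 10.97 at 12 months, a change of -1.11 ± 0.21 (adjusted p = 0.0708). H2-Aa, the alpha chain of the I-A molecule, had 10.78, 11.36, 10.04 and 10.38 at 6 months and 9.76, 8.68, 8.36 and 9.20 at 12 months, a change of -1.64 ± 0.35 (adjusted p = 0.0959). For both genes sample 23 was the highest, and the other 6-month samples also lay above all 12-month samples. The beta chain genes H2-Ab1 and H2-Eb1 had -1.47 ± 0.32 and -1.31 ± 0.32, and H2-DMa, a gene of the peptide exchange factor, -1.31 ± 0.31. H2-Oa and H2-Ob, on no list and added after their values were seen, had -1.51 and -1.41. The class I genes H2-K1, H2-D1 and B2m had changes of -0.10, 0.05 and -0.04, so their means lay within 0.1 log2 unit at both ages. Class I peptide loading genes Tap1 and Tap2 had 0.01 and 0.07.

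Of 5 B and plasma cell genes tested, 0 were called, 4 had lower means at 12 months (median -1.20, against -0.01 over all genes) and 3 had groups that did not overlap, as did 5.63% of all genes. Ms4a1, the gene of CD20, had -1.74 ± 0.39, and Cd79b and Cd79a, the signalling chains of the B cell receptor, -1.20 ± 0.25 and -1.11 ± 0.30. Ighm, the IgM heavy chain gene, had 0.58 ± 0.71, a positive value. Sample by sample the list mean was 8.17, 9.77, 8.12 and 7.57 at 6 months and 6.88, 6.58, 7.16 and 8.97 at 12 months. Sample 23 was the highest of the first group, and sample 37 lay above 3 of the 6-month samples. Of 11 T and natural killer cell genes, 0 were called and 10 had lower means (median -0.65). Their list mean was 8.91, 10.73, 9.34 and 9.23 at 6 months, and 9.10, 9.05, 8.62 and 8.72 at 12 months, so sample 23 stood more than 1 log2 unit above every other sample. Without sample 23 the median of the T and natural killer list was -0.24 and that of the B and plasma list -0.89. Plac8, listed with neutrophils and monocytes, had -1.76 ± 0.40, but S100a8 and S100a9 of the same list had 0.67 and 0.72. The part of these blood cells in the changes of Ccr7, Cmah and the class II genes was not tested.

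**Figure D2:**
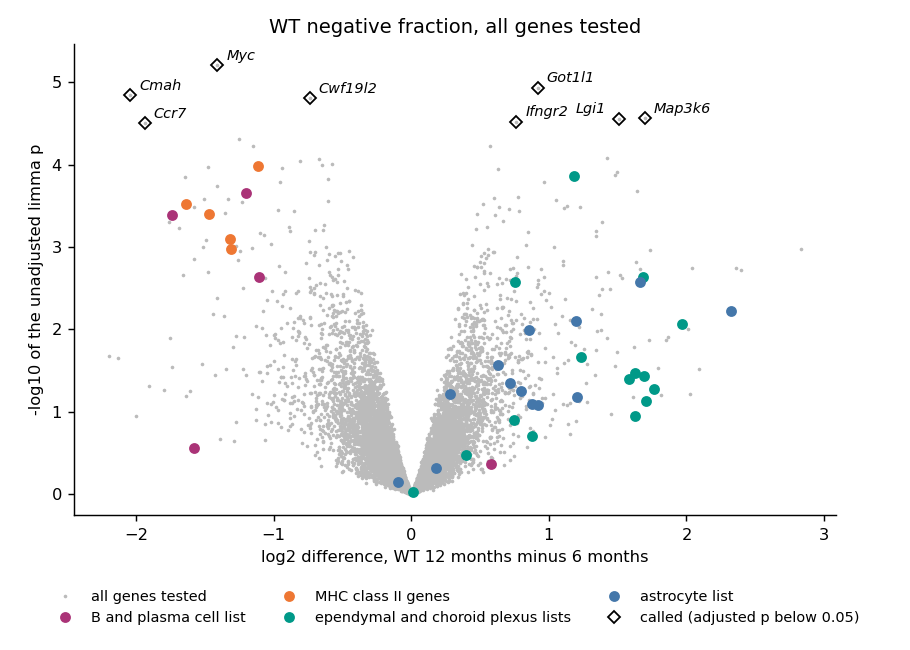
Change with age (x axis, log2, WT 12 months minus 6 months) against -log10 of the unadjusted limma p (y axis) for the 12628 genes tested, with the 8 called genes as open diamonds and members of 4 gene groups in colour. Class II and most B cell genes lie on the lower side (median of the B and plasma cell list -1.20) and ependymal, choroid plexus and most astrocyte genes on the higher side, and none of these list members was called.

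Genes of the ventricle lining and the choroid plexus had higher means at 12 months, none of them called. All 9 ependymal genes tested had positive values (median 1.19), 6 of them at an unadjusted p below 0.05. At that p, 4.48% of all genes were higher. The mean of the ependymal list was 6.38, 6.47, 6.76 and 7.28 at 6 months and 7.01, 8.42, 7.66 and 8.24 at 12 months, so the ages overlapped. Ccdc153, a gene of motile cilia, had 1.97 ± 0.65, and Dynlrb2, of a dynein light chain, 1.68 ± 0.46. Rsph1, of the ciliary radial spoke, had 5.66, 5.46, 5.90 and 5.73 at 6 months and 6.71, 7.31, 6.47 and 7.001 at 12 months, a change of 1.19 ± 0.23 (adjusted p = 0.0742). Rarres2, at 11.70 and 11.71, had the smallest value of the list, 0.01. Tmem212, 1 of the 6 genes at an unadjusted p below 0.05, had a 6-month mean of 5.17, below the dim limit of 5.54. In the fit of the 3 WT fractions, the ependymal median over 8 genes was 0.55 in astrocytes and -0.08 in microglia.

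All 6 choroid plexus genes had positive values too (median 1.62), of which 2 had an unadjusted p below 0.05. At that p, 4.48% of all genes were higher. These 2, Kcne2 and Aqp1, had 6-month means of 4.98 and 5.09, below the dim limit of 5.54, so the size of their rise is uncertain. The mean of the choroid plexus list was 6.20, 7.29, 5.53 and 8.30 at 6 months and 9.23, 8.995, 7.41 and 7.58 at 12 months, so the ages overlapped. Ttr, which encodes transthyretin, the abundant secreted carrier of this epithelium, was at 12.17 and 13.04, a change of 0.88 ± 0.65. Clic6 and Otx2 had 1.76 ± 0.84 and 1.71 ± 0.89, and Aqp1, a water channel gene, 1.23 ± 0.48. Over the 3 choroid plexus genes in the fit of the WT fractions, the median was 0.79 in astrocytes and 0.22 in microglia.

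Of 13 astrocyte genes, 12 had higher means at 12 months (median 0.85), with 6 at an unadjusted p below 0.05 and 0 called. At that p, 4.48% of all genes were higher. Aqp4, the water channel of astrocyte endfeet, had 2.32 ± 0.73, Aldoc, a glycolytic enzyme gene, 1.66 ± 0.46, and Ntsr2, a neurotensin receptor gene, 1.20 ± 0.39. Gfap, the intermediate filament gene, had 0.80 ± 0.38, from a 6-month mean of 5.28, below the dim limit of 5.54. The list mean was 8.92, 8.15, 8.41 and 8.49 at 6 months and 8.46, 10.20, 9.34 and 9.53 at 12 months. Sample 35 was the highest and sample 34 lay within the 6-month range. Without sample 35 the median was 0.58. Slc1a2 itself, the sorted marker, was at 9.59 in sample 34 and 11.53 in sample 35. The part of astrocyte, ependymal and choroid plexus RNA in the rise of Lgi1 was not tested. Lgi1 averaged 11.02 in the WT astrocyte fraction at 6 months, against 5.88 in the negative fraction.

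**Figure D3:**
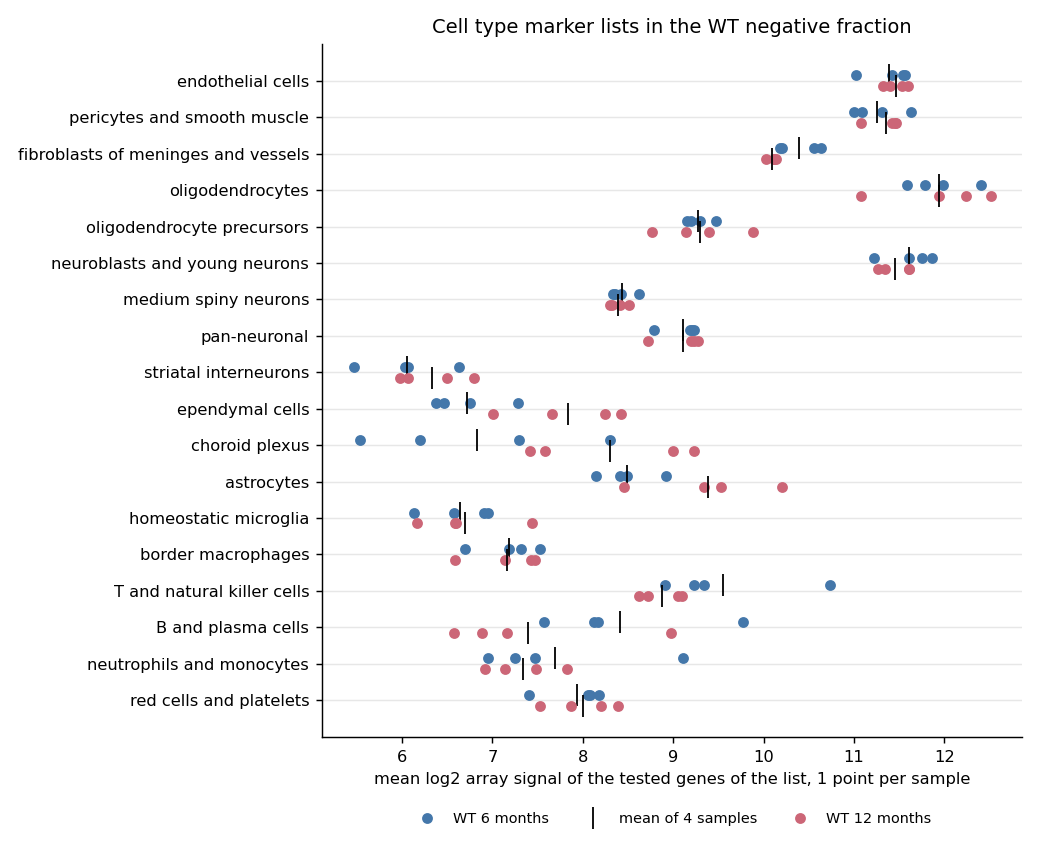
Mean log2 array signal of the tested genes of 18 cell type marker lists (x axis), 1 point per WT sample (6 months blue, 12 months red), black ticks giving the mean of 4 samples. Endothelial, oligodendrocyte and neuroblast lists are high and overlap between ages, T and natural killer cells have 1 high 6-month sample at 10.73, and ependymal and choroid plexus lists lie higher at 12 months with overlapping points.

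The lists with the highest levels had medians near 0. Endothelial genes had a median change of 0.11 over 17 genes, pericyte and smooth muscle genes 0.05 over 14, and neuroblast genes -0.09 over 14. None of their members was called. Eng, a TGF-beta co-receptor gene of endothelial cells, had 0.38 ± 0.27, and Tagln, of smooth muscle, 0.31 ± 0.15. Sp8, a transcription factor gene of migrating interneuron precursors, was at 11.47, 11.95, 11.58 and 12.01 at 6 months and at 11.29, 10.88, 11.18 and 10.64 at 12 months. Its groups did not overlap, and its change was -0.76 ± 0.28 (adjusted p = 0.39). Col1a1, the type I collagen gene of fibroblasts, had -0.88 ± 0.27 and also no overlap, within a fibroblast list of which 8 of 10 members had negative values (median -0.16). Oligodendrocyte genes had a median of -0.09. Among them Mobp, a myelin protein gene, had 1.51 ± 0.41, but its 5 probe sets ran from -0.21 to 1.51.

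Neuronal lists were lower in level and had no common direction. Medium spiny neuron genes averaged 8.43 and 8.39 (median change -0.13), pan-neuronal genes 9.11 and 9.10 (-0.02). Of 4 interneuron genes, Pvalb, a calcium-binding protein gene, had 1.10 ± 0.28, without a call. Its ages did not overlap (5.08, 5.00, 6.18 and 5.82 against 6.41, 6.88, 6.30 and 6.89). Its 6-month mean of 5.52 was below the dim limit, so the size of the rise is uncertain. Homeostatic microglia genes had a median of -0.09, oligodendrocyte precursors 0.03, border macrophages -0.03 (2 genes), neutrophils and monocytes -0.19 (4 genes) and red cells and platelets 0.14.

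The list mean of circadian clock genes varied little within each age. The mean of 17 clock genes was 9.49, 9.52, 9.46 and 9.52 at 6 months and 9.69, 9.77, 9.74 and 9.76 at 12 months, so the ages did not overlap. Of its members 12 had positive values (median 0.25), and 0 were called. At an unadjusted p below 0.05, 5 were higher and 1 lower, where 4.48% and 4.53% of all genes were. Without sample 24 the median was 0.14. Ciart, a repressor of the clock, had 0.78 ± 0.16 (adjusted p = 0.0959), Per1 0.92 ± 0.26, Per2 0.68 ± 0.23 and Tef, a clock output factor, 0.54 ± 0.14. Npas2, an activator and partner of Bmal1, had the opposite sign, -0.85 ± 0.19. Arntl, the gene of Bmal1, had -0.03. List means without overlap between the ages were not particular to the clock list. Heat shock and unfolded protein response genes had 11.27 to 11.40 at 6 months and 11.46 to 11.53 at 12 months. Fibroblast genes had 10.18 to 10.63 and 10.03 to 10.14, and antigen presentation genes 10.13 to 10.84 and 9.67 to 10.05. The hour at which the mice were killed was not given in the sources used here.

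Most stress hormone and chaperone genes had positive values, none of them called. Of 15 glucocorticoid response genes, 13 had higher means at 12 months (median 0.33) and 0 were called. Per1 is on this list too. Cdkn1a, the gene of the cell cycle inhibitor p21, had 10.97, 10.94, 10.52 and 10.32 at 6 months and 11.63, 11.67, 11.50 and 11.28 at 12 months, a change of 0.83 ± 0.20 (adjusted p = 0.159). Its ages did not overlap. The mean of the whole list did overlap, since sample 22 at 10.66 lay within the 12-month range of 10.55 to 10.82 and the other 6-month samples at 9.96 to 10.19 below it. Of 17 heat shock and unfolded protein response genes 14 had positive values (median 0.15), among them Dnajb1 at 0.47 ± 0.13. Pdia4, an enzyme gene of the endoplasmic reticulum, had -0.94 ± 0.18 (adjusted p = 0.0708) in the probe set used and 0.35 in its other probe set.

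Cytokine and chemokine genes divided by member. Of 13 tested, 0 were called and 5 had groups without overlap (5.63% of all genes had none), all 5 higher at 12 months. These were Cxcl1 (1.73 ± 0.43) and Cxcl2 (2.01 ± 0.68), neutrophil attractants, Cxcl10 (1.05 ± 0.22), a T cell attractant, and the adhesion molecules Icam1 (1.34 ± 0.32) and Vcam1 (0.92 ± 0.25) of activated endothelium. The monocyte attractant Ccl2 had 0.06 ± 0.33, and Tnf -0.02 ± 0.42, so the list median was 0.06. Interferon-stimulated genes had a median of 0.03 over 17 members. Of these Ifi27l2a had -1.08 ± 0.37, with sample 23 at 11.18 and the other 6-month samples between 9.36 and 9.65.

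The remaining pathway lists had medians between -0.21 and 0.17, with 0 genes called in any. The lowest were those of protocadherins (-0.21), DNA methylation and chromatin genes (-0.17, 13 of 16 negative), cell cycle genes (-0.14, 14 of 19 negative) and basement membrane genes (-0.12, 17 of 23 negative). Tet1, a DNA demethylase gene, had -0.74 ± 0.27, Rrm2, a ribonucleotide reductase gene, -0.26 ± 0.11, and Col4a5, a basement membrane collagen gene, -0.55 ± 0.14. Complement genes had 0.17, and TGF-beta, angiogenesis, glycolysis and immediate early genes from 0.04 to 0.07. Oxidative phosphorylation, ribosomal protein, proteasome, cholesterol synthesis, Wnt and barrier, oxidative stress, and cell cycle inhibitor genes lay between -0.04 and -0.0045. The members of smallest p in these and the remaining cell type lists, none called, included Aplnr, an apelin receptor gene of endothelium (-1.52 ± 0.62), Pcdh18 (-0.54 ± 0.16), Atf3, a stress-induced transcription factor gene (0.64 ± 0.37), and Tm7sf2, a sterol reductase gene (0.53 ± 0.14). Ldhb, a lactate dehydrogenase gene, had 0.51 ± 0.18, Cox5a 0.29 ± 0.10, Psma5 -0.24 ± 0.11, Sod2 -0.22 ± 0.12 and Rpl10a 0.12 ± 0.10. The sign differed between probe sets of Tet1 (-0.74 to 0.05), Cox5a (-0.13 to 0.29), Psma5 (-0.24 to 0.06) and Sod2 (-0.22 to 0.15). Those of Aplnr had -1.52 and -0.33. Across the 41 lists, 0 of the tested members were called by limma in the fit of the WT and zQ175 negative fractions. By its count of called genes there, no list stands out from the 0.0634% of all genes. The fit of the 3 WT fractions called 78 genes in the negative fraction, and list members among them were not counted. Standard errors differed there, at 0.15 for Cxcl10, 0.22 for H2-DMa and 0.35 for Cd74, beside 0.22, 0.31 and 0.21.

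In the negative fraction of zQ175 mice, limma called in the same fit 3700 genes (29.3%), 1976 higher (15.6%) and 1724 lower (13.7%) at 12 months. Across all 12628 genes the WT and zQ175 changes had the same sign in 60.6% (Pearson r 0.287 across genes, which are not independent replicates). Of the 8 WT genes, 7 had the same sign in zQ175 and 5 were called there in the same direction. Lgi1 rose in zQ175 by 1.28 ± 0.25, Map3k6 by 0.98 ± 0.29, Got1l1 by 0.69 ± 0.14 and Ifngr2 by 0.50 ± 0.13, and Cwf19l2 changed by -0.52 ± 0.12. Cmah and Ccr7 had -0.76 and -0.66 without a call, and Myc had 0.13 ± 0.21. The difference of the Myc changes was 1.54 ± 0.29 (adjusted p = 0.0884), and none of the 8 had a called difference between genotypes.

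None of the class II and B cell genes above was called in zQ175 mice. Cd74 had there 0.19 ± 0.21, H2-Ab1 0.58 and H2-Aa -0.50, and the B and plasma list had a median of -0.41. The difference of the Cd74 changes was 1.30 ± 0.30 (adjusted p = 0.144), not called. The ependymal list had a median of 1.23 in zQ175 with 3 of 9 genes called higher, where 15.6% of all genes were, among them Rsph1 (1.69 ± 0.23, adjusted p = 0.00138), and Aldoc of the astrocyte list rose by 2.27 ± 0.46. For choroid plexus genes the zQ175 median was 0.45, with 0 called. The mean of microglia genes was 6.71 at 6 months and 8.52 at 12 months in the zQ175 samples, with 6 of 11 genes called higher (15.6% of all genes), beside 6.64 and 6.70 in WT. The zQ175 samples at 12 months spread widely, from 7.59 to 11.01 (SD 1.66, against 0.12 at 6 months). C1qb was at 12.50 in zQ175 sample 31, and at 9.11, 9.78 and 9.21 in samples 30, 32 and 33. The part of microglia genes in the zQ175 changes was not tested.

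**Figure D4:**
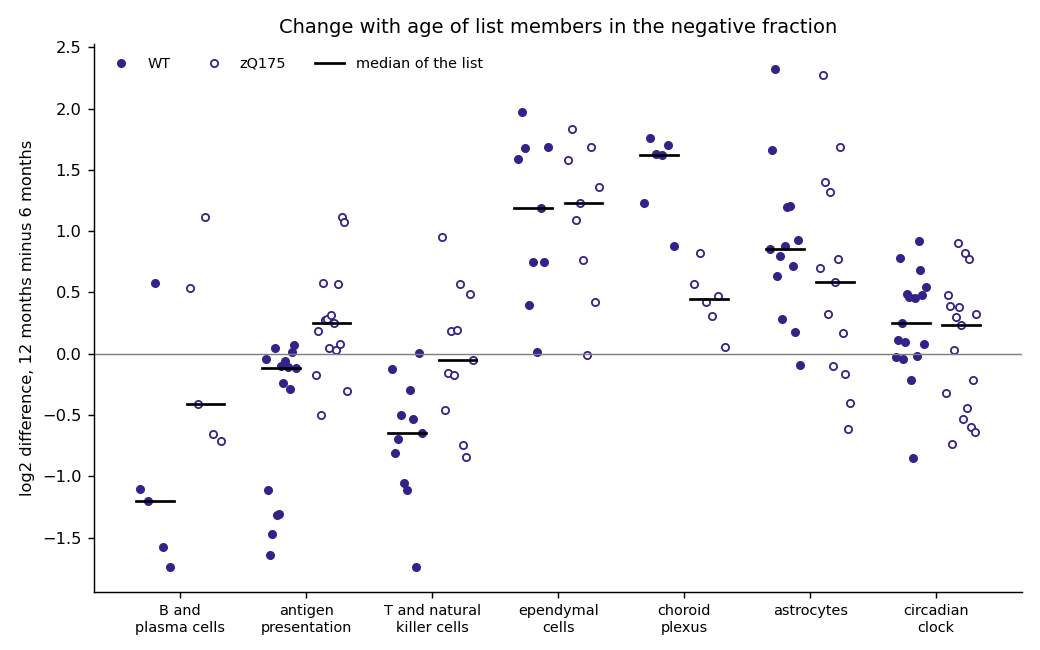
Change with age (y axis, log2, 12 months minus 6 months) of each tested member of 7 gene lists in the WT (filled) and zQ175 (open) negative fraction, with bars at the list medians. B and plasma cell medians are -1.20 in WT and -0.41 in zQ175, and ependymal medians 1.19 and 1.23, and no WT member shown was called.

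The difference between the zQ175 and the WT change was called for 4 genes (0.0317%), 3 higher (0.0238%) and 1 lower (0.00792%), with 2716 at an unadjusted p below 0.05. None of the 4 was called in WT mice. Acan, the gene of the proteoglycan aggrecan of perineuronal nets, was at 5.08, 5.02, 4.85 and 5.31 in WT mice at 6 months and 5.75, 5.34, 5.30 and 6.61 at 12 months, the 6-month values all below the dim limit of 5.54, and went from 6.56 to 10.23 in zQ175 mice. The changes differed by 2.98 ± 0.32 (adjusted p = 0.00174). Rap1gap, a gene that switches off the small GTPase Rap1, differed by 2.59 ± 0.37, and Frzb, of a secreted Wnt antagonist, by 2.42 ± 0.36. Their WT changes were 0.11 ± 0.26 and 0.05 ± 0.25. Lox, a collagen cross-linking enzyme gene, was at 8.79 and 8.87 in WT mice, and its zQ175 change was lower by -1.58 ± 0.24. The count was 10, 7 and 9 without WT samples 22, 25 and 37, 1 without WT sample 24, 35 or 36, 34, 2 and 25 without zQ175 samples 26, 29 and 33, and 1 without zQ175 sample 27, 28 or 30.

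The change of the negative fraction was then set against those of the WT astrocytes and microglia of the same ages, in a fit of 24 arrays and 12573 genes. In it limma called 78 genes with age in the negative fraction (0.62%), 36 in astrocytes (0.286%) and 788 in microglia (6.27%), 172 higher (1.37%) and 616 lower (4.9%). The difference between the negative fraction and astrocytes was called for 0 genes by limma (0%), with 477 at an unadjusted p below 0.05. Without astrocyte sample 22 or negative sample 34 it was called for 1 gene. Ifngr2 rose in all 3 fractions, by 0.76 ± 0.12 in the negative fraction, 0.78 ± 0.12 in astrocytes (adjusted p = 0.00992) and 0.86 ± 0.12 in microglia (adjusted p = 0.000453). Its level was far higher in microglia (9.92 at 6 months) than in the negative fraction. Cwf19l2 had negative values in all 3 fractions, -0.74 ± 0.12, -0.54 ± 0.12 in astrocytes (not called) and -0.52 ± 0.12 in microglia (adjusted p = 0.0164). Caap1, Rb1 and Zfp799, next in rank, were also negative in all 3, at -0.50, -0.41 and -0.73 in astrocytes. In microglia they were called, at -0.55, -0.80 and -1.06. The source of changes shared by the 3 fractions was not tested. Myc had -0.54 in astrocytes and 0.10 in microglia, neither called. H2-Aa had -1.64 ± 0.37 in the negative fraction in this fit. It was called lower in astrocytes, at -1.74 ± 0.37 (adjusted p = 0.0447), and was at -0.03 in microglia. The difference between the negative fraction and astrocytes was 0.10 ± 0.52, not called. In the same astrocyte fraction the B cell genes Cd79b and Cd79a had -1.26 and -0.98, and the B and plasma list a median of -0.79 over 4 genes. The part of these cells in the H2-Aa value of the astrocyte fraction was not tested. Cd74 had -1.16 ± 0.35 in astrocytes, not called, and 0.16 ± 0.35 in microglia, where its level was 12.68 at 6 months. Map3k6 had 0.14 ± 0.27 in astrocytes and 0.63 ± 0.27 in microglia. Its difference to the negative fraction, 1.56 ± 0.38 for astrocytes, was not called (adjusted p = 0.619). Cmah and Ccr7 were too dim across these arrays to be tested.

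Against microglia the change differed for 11 genes (0.0875%), 10 of them higher (0.0795%) and 1 lower (0.00795%) in the negative fraction, with 1036 at an unadjusted p below 0.05. For the 4 with the smallest p on the higher side the difference came with a fall in the microglia fraction. Oligodendrocyte markers in that fraction had a median change of -1.17 over 12 genes, their list mean being 11.12 (10.92 to 11.27) at 6 months and 10.17 (9.07 to 10.76) at 12 months, and their part in these falls was not tested. Cobll1 was at 11.80 and 11.56 in the negative fraction (-0.24 ± 0.14), and went from 8.65 to 7.08 in microglia. Elovl7, a fatty acid elongase gene, was at 10.78 and 11.03 against 8.43 and 6.85 in microglia, and the changes differed by 1.83 ± 0.27 (adjusted p = 0.00584). Plekhg1 and Gng11, a G protein subunit gene, differed by 1.81 ± 0.27 and 1.12 ± 0.17, with changes of -0.07 and -0.02 in the negative fraction. Cxcl10, also among the 10, had 1.05 ± 0.15 in the negative fraction and -0.18 ± 0.15 in microglia, a difference of 1.23 ± 0.21 (adjusted p = 0.0195). Egln3, an oxygen-sensing prolyl hydroxylase gene, went the other way: 6.28, 6.64, 6.63 and 6.48 at 6 months, 6.07, 6.02, 6.09 and 6.16 at 12 months, and a rise of 0.62 ± 0.14 in microglia (difference -1.04 ± 0.19, adjusted p = 0.036). The count was 28, 5, 23, 5, 6 and 4 without negative samples 22, 23, 34, 35, 36 and 37, and 5, 19, 22, 47, 31 and 21 without microglia samples 23, 25, 34, 35, 36 and 37.

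**Figure D5:**
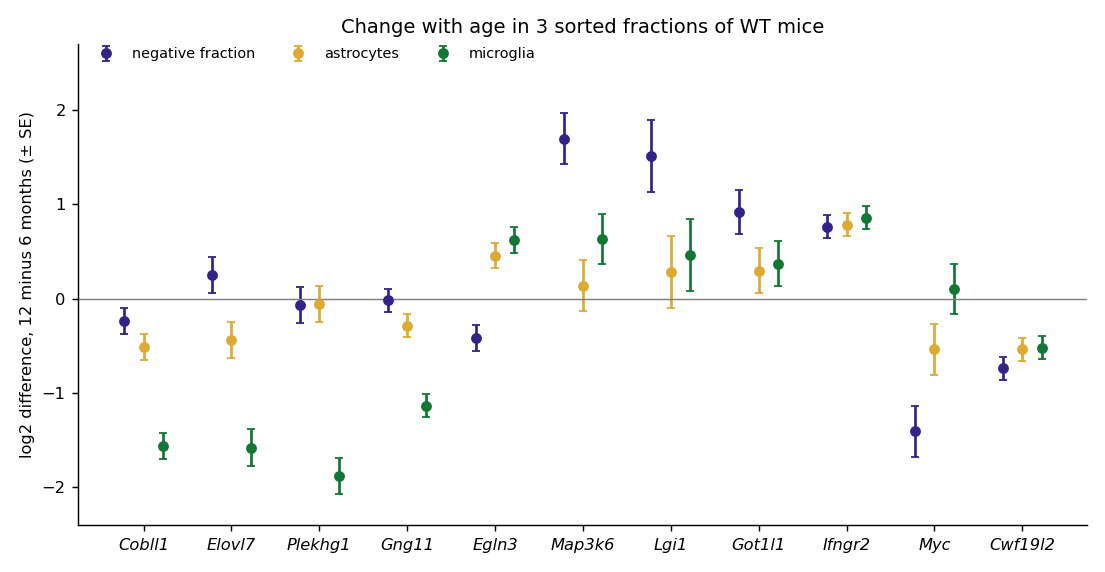
Change with age (y axis, log2, 12 minus 6 months, ± SE, 4 samples per age) in the WT negative fraction, astrocytes and microglia, for the 5 genes named by their difference to microglia and the 6 called genes of the negative fraction tested in this fit. Cobll1, Elovl7, Plekhg1 and Gng11 are lower with age in microglia and near 0 in the negative fraction, and Ifngr2 is higher by 0.76 to 0.86 in all 3 fractions. Cwf19l2 is negative in all 3, from -0.74 to -0.52.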

How the data were processed

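RNA of sorted striatal cells was measured on Affymetrix mouse genome arrays. The authors deposited log2 values of 45101 probe sets made with affy and RMA, per the submitters' processing notes, which name limma too. Tool versions were not given in the sources used here, nor the set of arrays normalized as one, and values were taken as deposited. Array medians of the negative fraction at 6 and 12 months ran from 6.43 to 6.57. For arrays, their number, 4 per group, limits the precision.

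Of the probe sets, 34958 had 1 gene symbol in the platform annotation, 932 several and 9211 none. Each of 18194 genes was read from its brightest probe set on average. A fit tested the genes whose mean in it was at or above the 40th percentile of probe set means. Two-sided tests came from limma 3.58.1 (lmFit, eBayes; R 4.3.3) on group means of the WT and zQ175 negative fractions at both ages (16 arrays), with Benjamini-Hochberg adjustment and calls at an adjusted p below 0.05. A second fit of the 3 WT fractions (24 arrays) gave the differences between fractions. The script was tested on simulated data.

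Genes eligible to be named were the up to 12 called genes of each direction with the largest change, filled up with those of smallest p, the member of smallest p in each of 41 lists, up to 4 called genes per direction for each difference, and the sort and sex-linked genes. Members of lists given beyond these were chosen after their values were seen. The samples, lists and comparisons were chosen with earlier results of these data known. Of 654 distinct listed genes, 66 had no probe set. Alternatives were another filter on dim genes, the mean of the probe sets, renormalization, median centring, a trend with robust moderation, array weights, a Y-linked covariate, the WT samples alone, a replicate block and leaving out each sample.

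The 6- and 12-month samples share no replicate number. Scan dates were not given in the sources used here, so whether the ages also differed in array run was not tested. Promoter sequences are RefSeq's for GRCm38.p6, matched by symbol.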

Additional observations from a re-analysis of the deposited data

Results flagged for a closer look

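Of 208 groups of 4 samples checked for 63 genes and 41 list means, 13 held a sample far from the other 3, and chance gives about 1 in 20. Sample 23 of the 6-month group was the highest for Cd2 (11.29, the next at 10.15) and Ifi27l2a (11.18, the next at 9.65). Sample 24 was high for Zc3h18 (8.86) and low for the Y-linked gene Uty (7.01). Sample 25 was low for the platelet and macrophage chemokine gene Pf4 (6.90) and for the mean of red cell and platelet genes (7.41), and sample 22 for the pan-neuronal mean (8.79). At 12 months sample 37 stood apart for Pdgfra, a gene of oligodendrocyte precursors and fibroblasts (10.75, the next at 10.10), Rb1 (10.50, the others at 10.63) and the respiratory chain gene Cox5a (12.16). Sample 35 was low for the pericyte and smooth muscle mean (11.08) and the pan-neuronal mean (8.72), and sample 36 high for the cell cycle mean (10.24).

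By the test of the difference itself, the change with age differed between zQ175 and WT mice for Acan (2.98), Rap1gap (2.59), Frzb (2.42) and Lox (-1.58). It differed between the negative fraction and microglia for Cobll1 (1.33), Elovl7 (1.83), Plekhg1 (1.81), Gng11 (1.12) and Egln3 (-1.04). Cobll1, Elovl7, Plekhg1 and Gng11 were higher in the negative fraction than in microglia at both ages.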

How the results depend on the processing

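The 8 calls with age lay just inside the threshold. Their number was 14 with no filter on dim genes, 464 with array weights (226 higher, 238 lower; weights of the WT samples from 0.428 to 2.6), 1 with the 8 WT samples alone, and 0 with the filter at the 60th percentile, the mean of the probe sets, renewed quantile normalization, trend with robust moderation or the Y-linked covariate. Without zQ175 samples 31 and 32, an alternative chosen after seeing the data, it was 1. With each array centred on its median it was 6, 4 higher and 2 lower beside 4 and 4. Leaving out 1 sample gave 0 to 21. All 8 genes kept their direction under each alternative in which they were tested. For the difference between zQ175 and WT the count of 4 became 11 with no filter, 0 at the 60th percentile, 1002 with array weights and 1 to 34 without 1 sample. The difference to astrocytes was called for 1 gene with array weights and for 0 to 1 without 1 sample. That to microglia was called for 6 genes with the mean of the probe sets, 20 with trend and robust moderation, 151 with array weights and 4 to 47 without 1 sample. The cause of these shifts was not tested.

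The replicate number, shared by the 3 fractions, as a replicate block gave 0 calls against astrocytes and 55 against microglia. Deviations of same-numbered samples correlated at r from -0.17 to 0.45 (astrocytes) and 0.00 to 0.35 (microglia), over 0.1 for 6 and 5 of 8 pairs, with 5 and 4 of 8 best matched to their own number. All 12-month pairs were over 0.1 and 5 of the 8 6-month pairs were not, so pairing was not assumed and is not settled.

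Reversed values were those of Eif2s3y (-0.22 against 0.12) and Kdm5d (0.11 against -0.38) when probe sets were averaged, and Pf4 (-0.15 against 0.15) with array weights. Without 1 sample Pf4 ran from -0.087 to 0.323 and Eif2s3y from -0.00072 to 0.250. None of these 3 genes was called.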

Other observations

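Ranked by size of change alone, with no call, the 15 largest positive values in the WT negative fraction included Slc39a12, a zinc transporter gene (2.83 ± 0.70), Agt, the angiotensinogen gene (2.36 ± 0.62), Ecrg4 (2.09 ± 0.87), Cxcl14 (2.04 ± 0.54) and Ch25h, the cholesterol 25-hydroxylase gene (1.85 ± 0.66). Of these Agt was called in zQ175 mice, at 2.30 (adjusted p = 0.0167). Agt and Cxcl14 had WT 6-month means of 5.10 and 4.87, below the dim limit of 5.54, so the size of their WT rise is uncertain. Among the 15 largest negative values were 3 immunoglobulin kappa variable genes from Igkv6-14 (-2.20 ± 0.85) to Igk-V21 (-1.79 ± 0.86), which have near-identical copies and are uncertain as single genes, Igha (-2.004 ± 1.20), Mzb1, a plasma cell chaperone gene (-1.75 ± 0.62), and Ctla4, a T cell inhibitory receptor gene (-2.13 ± 0.84). Btla, an inhibitory receptor gene of lymphocytes, had -1.69 ± 0.39, and Cd69, an early activation marker gene, -1.64 ± 0.32 (adjusted p = 0.0742), with -1.28 and a call in zQ175 mice. The B cell genes Bank1, Blk and Pou2af1 had -1.33, -1.44 and -1.48. Ctla4 and Blk had 12-month means of 5.28 and 4.67, below the dim limit of 5.54, so the size of their falls is uncertain. All genes named in this section were chosen after their values were seen.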
